A study of Rattus norvegicus with 90 samples.

Results

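Of 40071 transcripts measured in rat liver 8 h after thioacetamide, 30 that were higher than vehicle and 73 that were lower had moved further after the low dose than after the high dose. They were selected by the change L, the log2 ratio of mean CPM (counts scaled to a common library total, each mean plus 1) in a treated group over vehicle, less the median of that ratio over the 13989 transcripts with a vehicle mean of at least 1 CPM. A member had an absolute low-dose L of at least 0.8 and a low-dose L at least 0.7 further from 0, in its own direction, than its high-dose L. The 30 are called risen members and the 73 lowered members. Chosen again without the low-dose library MS-9, which is described below, the set held 31 risen and 92 lowered members and shared 85 with the first. Because the liver libraries at 8 h chose the members, the values of those libraries are a description without a test. The measurements that the choice did not use are kidney, heart, and liver at 24 h other than the vehicle library MS-1. MS-1 holds the same data as MS-9, so the first choice of members did use its data.

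The animals were male Sprague-Dawley rats that carried a jugular vein catheter. Each received 1 intraperitoneal injection of thioacetamide at 25 mg/kg (low dose) or 100 mg/kg (high dose), or of saline at 3 ml/kg (vehicle), and was fasted for the 8 h before its organs were taken. Rats taken at 8 h were dosed in the morning and had no food after dosing. Rats taken at 24 h were dosed in the late afternoon and had food until the last 8 h. Differences between the times cannot be told apart from these differences in dosing hour and feeding. Poly-A-enriched RNA from whole liver, kidney, and heart was sequenced at 8 or 24 h, which gave 18 groups of 5 libraries and 90 libraries in all. The labels do not say which libraries of the organs came from the same rat.

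Thioacetamide is a model hepatotoxicant. It is harmless until the liver oxidizes it, through CYP2E1 and flavin-containing monooxygenases, to an S-oxide and then to a reactive S,S-dioxide that binds proteins and lipids. Injury begins in the hepatocytes around the central vein, where these enzymes are most abundant, and widens with dose and time. A transcript that falls in whole liver can mark fewer cells of a type or less RNA per cell, and these cannot be told apart in bulk RNA.

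The files gave Ensembl transcript identifiers, and no table used here paired them with genes. The members are therefore described by their levels, directions, lengths, and 4 leading identifiers, and neither gene functions nor liver markers could be checked. Over the 30 liver libraries, the estimated counts on transcripts ranged from 15870343 to 34299122. Between 4.08% and 28.9% of the counts of a liver library fell on genomic intervals, which were not used. The low-dose library MS-9 at 8 h and the vehicle library MS-1 at 24 h held the same data. Among the 15797 transcripts that reached 10 counts in one of them, the 2 libraries were within 1 count of each other for 99.96%, and over the members the largest difference was 0.72 counts. The labels place these data in both groups, so values at 8 h are given also without MS-9, and values at 24 h also without MS-1.

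At 8 h, the median L of the risen members was 1.28 for the low dose, compared with 0.09 for the high dose. For the lowered members it was −1.19, compared with −0.17. By this selection, the median member lay over 1 log2 unit from vehicle at 25 mg/kg and close to vehicle at 100 mg/kg. Taking a high-dose L within 0.3 of 0 as near vehicle, 16 of the 30 risen members were near vehicle after the high dose, 11 had moved in the same direction but less, and 3 had moved in the opposite direction. Of the 73 lowered members, 29 were near vehicle, 29 had moved in the same direction, and 15 had a high-dose L above 0.3. The risen member with the largest low-dose L, 5.51, was of the second kind, with 4.69 after the high dose, and at 24 h without MS-1 it stood at 5.21 and 6.52.

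**Figure D1:**
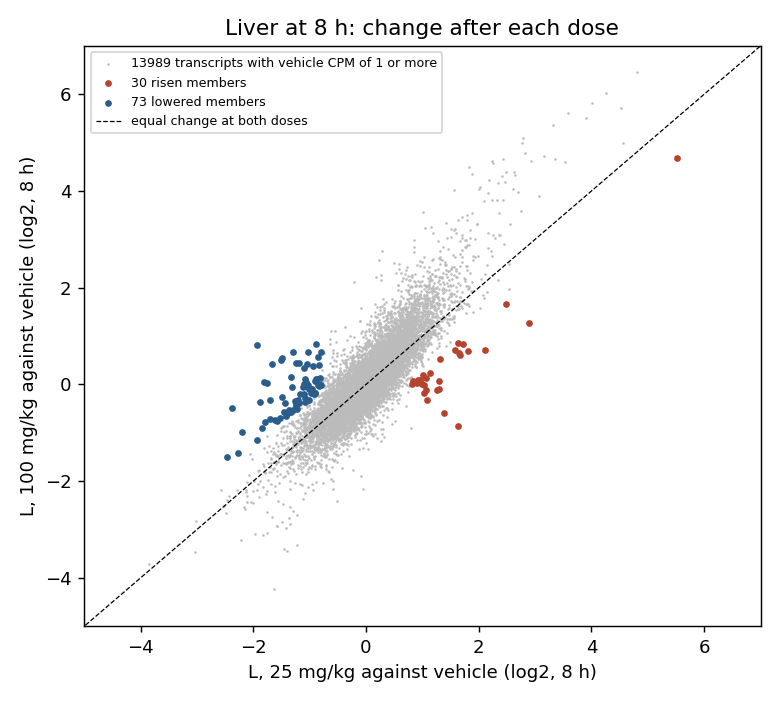
Change L at 8 h in liver after 25 mg/kg (x axis, log2) and 100 mg/kg (y axis, log2), with 1 point per transcript. The 13989 grey points lie on both sides of the dashed line of equal change, and the 30 risen and 73 lowered members lie on the low-dose side of that line by construction.

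The set was a small minority of what the low dose moved. Of 2079 transcripts whose low-dose L passed 0.8 in either direction, 4.95% were members. The limits passed through a continuous range of values. The smallest absolute low-dose L among members was 0.801, and the largest among transcripts that met the gap alone was 0.799. The smallest gap among members was 0.702, and the largest among transcripts that met the low-dose limit alone was 0.697.

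Risen members mostly had low RNA levels in vehicle liver. Their median level was 1.45 CPM in vehicle, 5.72 CPM after the low dose, and 2.12 CPM after the high dose, and 14 of the 30 had a vehicle mean under 1 CPM. Lowered members were more abundant in vehicle and after the high dose, with medians of 15 CPM in vehicle, 5.15 CPM after the low dose, and 13.3 CPM after the high dose. The rule used these group means. A transcript needed signal in vehicle to count as lowered but not to count as risen, so the difference in vehicle level is partly set by the rule. The most abundant of them averaged 6576 CPM in vehicle. The median annotated length was 2822 bases for risen members and 1890 bases for lowered members, against 2205 bases over the 13989 transcripts.

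Many members were also detected in the other organs. In kidney at 8 h, 86.7% of risen and 61.6% of lowered members had a vehicle mean of at least 1 CPM, compared with 95.2% of the 13989 liver transcripts. In heart the shares were 56.7%, 54.8%, and 90%. The 13989 had to reach 1 CPM in liver, which 14 risen and 4 lowered members did not, so the shares are set side by side without a comparison.

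The overlap of the 8 h groups was described in CPM before centring. These overlap counts cover all members, while the shares beside them cover only transcripts that passed the low-count filter of edgeR. For low dose against vehicle, 23 risen and 60 lowered members passed that filter, so counts and shares are not compared. For 15 of the 30 risen members, all 5 low-dose libraries lay above all 5 vehicle libraries, where 26.8% of all transcripts tested did so. For 12 of the 73 lowered members, all 5 lay below, where 4.31% of all transcripts tested did so. The low-dose and high-dose libraries did not overlap for 10 risen members, which were lower at the high dose (13.2% of all transcripts tested), and for 9 lowered members, which were higher (2.66%). Calls in edgeR needed an adjusted p at or under 0.01 and a change of at least 0.6 in natural-log units. By these criteria 9 of the 23 risen members tested were higher after the low dose (5.78% of all transcripts) and 24 of the 60 lowered members tested were lower (4.10%). Without MS-9 these were 8 of 24 (4.25%) and 18 of 69 (3.25%). After the high dose, 2 of 20 risen members were higher than vehicle (12.4%) and 1 of 69 lowered members was lower (7.75%). Between the high and low doses, 3 of 23 risen members were lower at the high dose (0.666% of all transcripts) and 5 of 61 lowered members were higher (1.73%), or 3 of 24 (0.546%) and 4 of 62 (1.75%) without MS-9. The selection fixed these directions, so the counts only describe how tight the groups were.

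In each low-dose library, the median over the risen members was between 1.15 and 1.38 above the vehicle mean on the log2 scale, and the median over the lowered members was between −1.43 and −1.18. MS-9 gave 1.20 and −1.18. When the members were chosen again without MS-9, its own medians were 0.71 and −0.72, against 1.10 to 1.38 and −1.36 to −1.19 in the other 4 low-dose libraries. The vehicle libraries had medians between −0.14 and 0.03 for risen members. These medians do not show how far single members varied between the vehicle libraries. For lowered members the vehicle medians spread from −0.69 in MS-28 to 0.37 in MS-16. The high-dose medians ran from −0.74 in MS-14 to −0.04 in MS-17, within the vehicle spread but for MS-14.

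**Figure D2:**
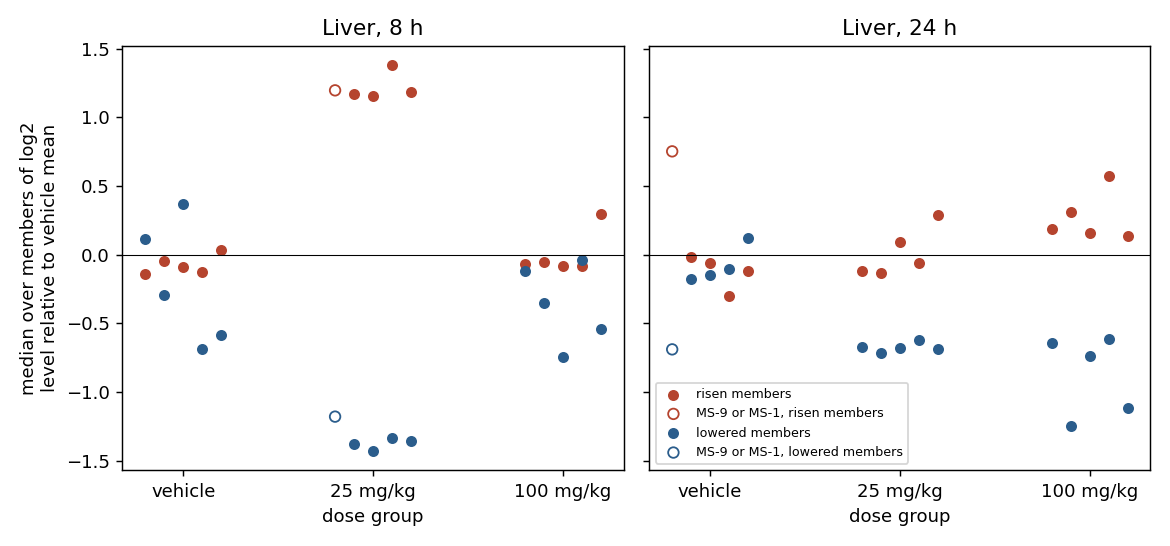
Median over the 30 risen (red) and 73 lowered (blue) members of the log2 level relative to the vehicle mean of the same time (y axis), with 1 point per liver library by dose group (x axis). Open points are MS-9 and MS-1, which hold the same data, and MS-1 does not enter the 24 h vehicle mean. At 24 h all 5 low-dose and all 5 high-dose libraries lay below the other 4 vehicle libraries for lowered members.

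Part of the lowered set rested on 1 vehicle library. MS-16 was the highest vehicle library for 39 of the 73 lowered members. For 24 lowered members a single vehicle library held over 50% of the summed vehicle CPM, and for 15 of those 24 it was MS-16. The same held for 13 of the 30 risen members, with no library singled out. A vehicle library at 0 counts stood beside another at 1 CPM or more for 7 of the 30 risen and 9 of the 73 lowered members. Without MS-16, 49 of the 73 lowered members still had a low-dose L of at most −0.8. Of the 73, 70 were still below 0, and their median moved to −1.02. With group medians in place of group means, 50 of the 73 lowered and 23 of the 30 risen members passed 0.8 in their own direction, and 5 lowered and 3 risen members changed sign or were at 0. Before centring, the low-dose median CPM was not below the vehicle median for 10 of the lowered members. It was not above the vehicle median for 2 of the risen members. MS-16 also placed 23.6% of its counts on genomic intervals, toward the upper end of the range in liver, and the part of this share in the result was not tested.

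The member with the largest gap of all, a lowered transcript of 2493 bases, shows this dependence. It was singled out after its values were seen. Its 5 vehicle libraries at 8 h held 2.67, 3.18, 3.37, 123 (MS-10), and 801 CPM (MS-16). Its low-dose libraries ranged from 14.7 to 143 CPM, with a median of 43.2 CPM. Its high-dose libraries ranged from 116 to 624 CPM, with a median of 265 CPM. All 10 treated libraries thus lay above 3 of the 5 vehicle libraries, although the low-dose mean, 56.9 CPM, was below the vehicle mean, 187 CPM. At 24 h, without MS-1, vehicle ranged from 2.88 to 27.6 CPM, the low dose from 26.1 to 53.4 CPM, and the high dose from 174 to 587 CPM. Another lowered member had the same form, with 564 CPM in its highest vehicle library at 8 h, a vehicle median of 3.13 CPM, and a low-dose median of 22 CPM. At 24 h its vehicle libraries other than MS-1 held 1.85 to 6.02 CPM and its high-dose libraries 69.9 to 400 CPM.

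At 24 h in liver, the lowered members were mostly below vehicle, and the position of the risen members depended on MS-1. Without MS-1, the median L of the 30 risen members was 0.50 after the low dose and 0.28 after the high dose, with 18 and 21 of the 30 above 0. For the 73 lowered members, the median was −0.44 after the low dose and −0.68 after the high dose, with 52 and 57 of the 73 below 0. With MS-1, the risen members had medians of 0.03 and 0.16, with 15 of the 30 above 0 at each dose. MS-1 holds the data of MS-9, in which these members were chosen to be high. Its place in the vehicle mean thus lowers their L by the choice, and the values with MS-1 cannot decide whether they were displaced. For the 31 risen members chosen without MS-9, the medians were 0.32 and 0.21 without MS-1, and 0.09 and 0.22 with it. The lowered members had medians of −0.38 and −0.60 with MS-1, and 49 and 54 of the 73 were below 0. By the definition of L, the median over all transcripts with a vehicle mean of at least 1 CPM was 0. The sizes at 8 h were part of the choice, so no difference in size between the times is read from them.

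For lowered members at 24 h, the high dose had the median L further from vehicle, but the library medians of the 2 doses overlapped. All 5 high-dose libraries had medians between −1.25 and −0.62, and the 5 low-dose libraries between −0.71 and −0.62, against −0.17 to 0.12 in the 4 vehicle libraries other than MS-1. For risen members, the 5 high-dose libraries lay between 0.13 and 0.57, above the vehicle libraries other than MS-1, which lay between −0.30 and −0.02. The low-dose libraries, between −0.13 and 0.29, overlapped them. With MS-1 in the vehicle mean, the high-dose medians for risen members were −0.27 to 0.37. They overlapped those of the other 4 vehicle libraries, which were −0.56 to −0.12. For risen members chosen without MS-9, the high-dose libraries lay between −0.08 and 0.54 and overlapped the same vehicle libraries, which then lay between −0.26 and −0.02. Lowered members chosen that way stayed separate, with −1.39 to −0.51 after the high dose against −0.26 to 0.15. MS-1 lay at 0.75 for risen and −0.69 for lowered members. It lay at 0.56 and −0.26 when the members were chosen without MS-9.

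Transcript by transcript, the number of members that differed from vehicle at 24 h depended on the dose and on MS-1. After the low dose, edgeR called 1 of the 23 risen members tested as higher (0.960% of all transcripts tested) and 2 of the 63 lowered members as lower (0.954%). Without MS-1, it called 6 of 23 risen members (4.89%) and 9 of 63 lowered members (4.15%). After the high dose, 3 of 24 risen members were higher (7.44%), 11 of 65 lowered members were lower (8.85%), and 2 lowered members were higher. Without MS-1, 7 of 24 risen members were higher (13.2%), 22 of 65 lowered members were lower (13.6%), and 3 lowered members were higher. At an unadjusted edgeR p under 0.05, 11 of 24 risen and 39 of 65 lowered members differed from vehicle in that last fit. Over all 17137 transcripts tested, 10092 did so, so nothing is read from these 2 counts. After the high dose, the shares of lowered members called lower and of risen members called higher were above the shares over all transcripts in both fits. The risen shares rest on 3 and 7 members, and the differences between the shares were not tested.

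Compared directly at 24 h, the high dose gave higher levels than the low dose for 3 of 23 risen members (2.76% of all transcripts) and lower levels for 1 (3.84%). Of 63 lowered members, 2 were lower and 3 were higher. The median log2 fold change, high against low dose, was 0.55 over the risen and −0.41 over the lowered members tested, against 0.03 over all 17101 transcripts tested. This comparison used neither MS-1 nor MS-9.

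Lowered members that the high dose had left near vehicle at 8 h were mostly below it at 24 h, here without MS-1. Of the 29 lowered members near vehicle after the high dose at 8 h, 24 were below 0 at 24 h, with a median L of −0.68, and 24 with a median of −0.70 when MS-1 was included. Of the 29 that had fallen less at the high dose, 26 were below 0, with a median of −1.23. For the 15 that had exceeded vehicle at 8 h, the 24 h median was 0.18, and 8 of them were above 0. Among risen members, 12 of the 16 near vehicle at 8 h were above 0 at 24 h after the high dose, with a median of 0.25, but only 8 of the 16 with MS-1 included.

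**Figure D3:**
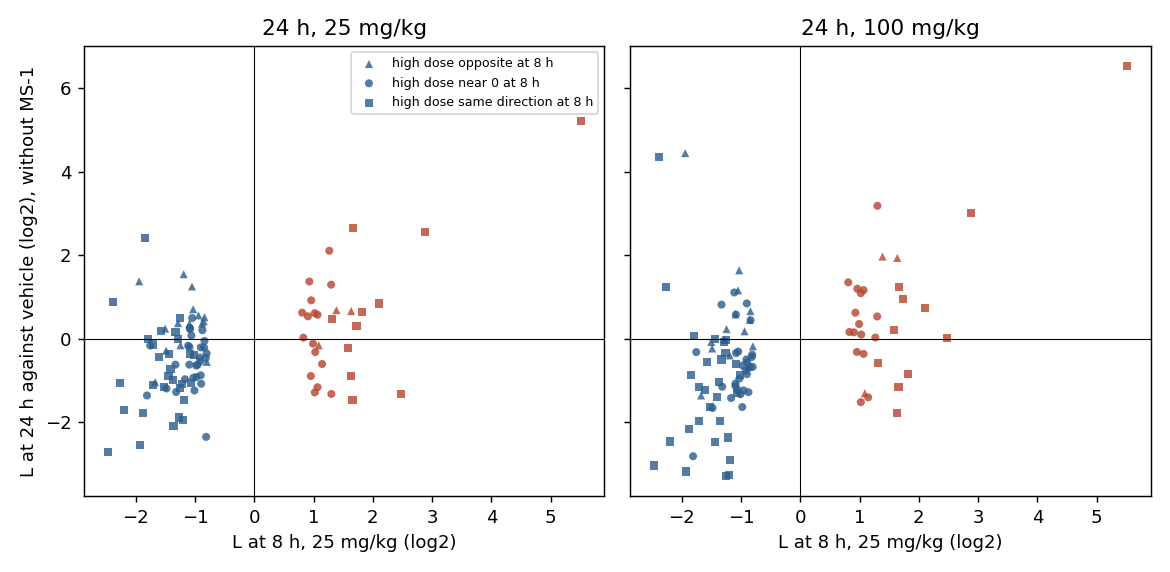
Change L at 24 h without MS-1 (y axis, log2) after 25 mg/kg (left) and 100 mg/kg (right) against L at 8 h after 25 mg/kg (x axis, log2), with 1 point per member (red risen, blue lowered). Symbols give the high-dose direction at 8 h. After 100 mg/kg, 57 of the 73 lowered members lay below 0, and the 2 highest blue points are the lowered members whose vehicle libraries at 8 h are given in the text.

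ENSRNOT00000028411, a transcript of 3809 bases, had the largest gap among the risen members. At 8 h, vehicle livers held 28, 44.4, 22.2, 52.6, and 58 CPM. Low-dose livers held 226 (MS-9), 149, 181, 110, and 104 CPM, and high-dose livers held 17.2, 26.6, 33.3, 14.5, and 23.7 CPM. Every low-dose liver was above every other liver of that time, and the high-dose livers reached below the vehicle range. The means were 41.1 ± 15.5, 154 ± 50.9, and 23.1 ± 7.52 CPM (SD, n = 5). At 24 h the order of the doses was the reverse. Vehicle livers held 75.0, 39.5, 33.8, and 27.9 CPM, and 226 CPM in MS-1. Low-dose livers held 95.8, 110, 111, 91.8, and 67.2 CPM, and high-dose livers held 232, 378, 248, 160, and 353 CPM, without overlap with the low dose. The high dose was 1.20 higher than the low dose on the log2 scale (SE 0.186, edgeR adjusted p = 0.00173). Against vehicle it was 1.77 higher without MS-1 (SE 0.282, edgeR adjusted p = 0.00051) and 1.19 higher with it (SE 0.469, edgeR adjusted p = 0.0671).

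In kidney and heart the same transcript was lower after the high dose at 24 h. In kidney, vehicle libraries held 290 to 429 CPM and high-dose libraries 122 to 167 CPM, a log2 fold change of −1.36 (SE 0.141, edgeR adjusted p = 0.000125). In heart at 24 h, vehicle libraries held 55.8 to 84.9 CPM and high-dose libraries 24.4 to 36.9 CPM, a log2 fold change of −1.10 (SE 0.151, edgeR adjusted p = 0.00204). Neither pair of groups overlapped. In kidney at 8 h the high dose gave −0.74 (SE 0.107, edgeR adjusted p = 0.00262), which was short of the fold limit, and in heart −0.71 (SE 0.166, edgeR adjusted p = 0.143). In liver at 8 h the high-dose mean was also below the vehicle mean, as given above. The transcript was therefore lower after 100 mg/kg in kidney and heart at 24 h and higher in liver at the same time. The high-dose effect at 24 h differed between liver and kidney by 3.19 (SE 0.324, edgeR adjusted p = 2.57e-06) and between liver and heart by 2.82 (SE 0.328, edgeR adjusted p = 2.48e-06), without MS-1. Organs of the same rats were treated as independent in these tests, since the labels do not tie the libraries to animals.

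ENSRNOT00000088588, a transcript of 3057 bases, had the same form at lower levels. At 8 h, vehicle livers held 2.27, 4.65, 1.49, 2.0, and 2.55 CPM. Low-dose livers held 14.9 (MS-9), 9.97, 13.2, 7.12, and 5.54 CPM, and high-dose livers held 2.06, 1.57, 1.10, 0.687, and 1.93 CPM. The low-dose livers were all above the rest, and the high-dose and vehicle livers overlapped. At 24 h, vehicle livers other than MS-1 (14.9 CPM) held 4.27, 1.84, 1.80, and 2.08 CPM. Low-dose livers held 7.47, 9.37, 6.72, 4.66, and 4.68 CPM, and high-dose livers held 10.49, 34.8, 20.6, 11.7, and 26.6 CPM. The 3 groups were in dose order without overlap once MS-1 was left out. The high dose was 1.34 above the low dose on the log2 scale (SE 0.296, edgeR adjusted p = 0.00668), and 2.19 above vehicle without MS-1 (SE 0.362, edgeR adjusted p = 0.000643). With MS-1 it was 1.49 above vehicle (SE 0.536, edgeR adjusted p = 0.0487), which did not pass 0.01. In kidney at 24 h its high-dose log2 fold change was −1.29 (SE 0.355, edgeR adjusted p = 0.0321), which did not pass 0.01. The high-dose effect at 24 h differed between liver and kidney by 3.53 (SE 0.539, edgeR adjusted p = 0.000114) and between liver and heart by 3.51 (SE 0.533, edgeR adjusted p = 4.36e-05).

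**Figure D4:**
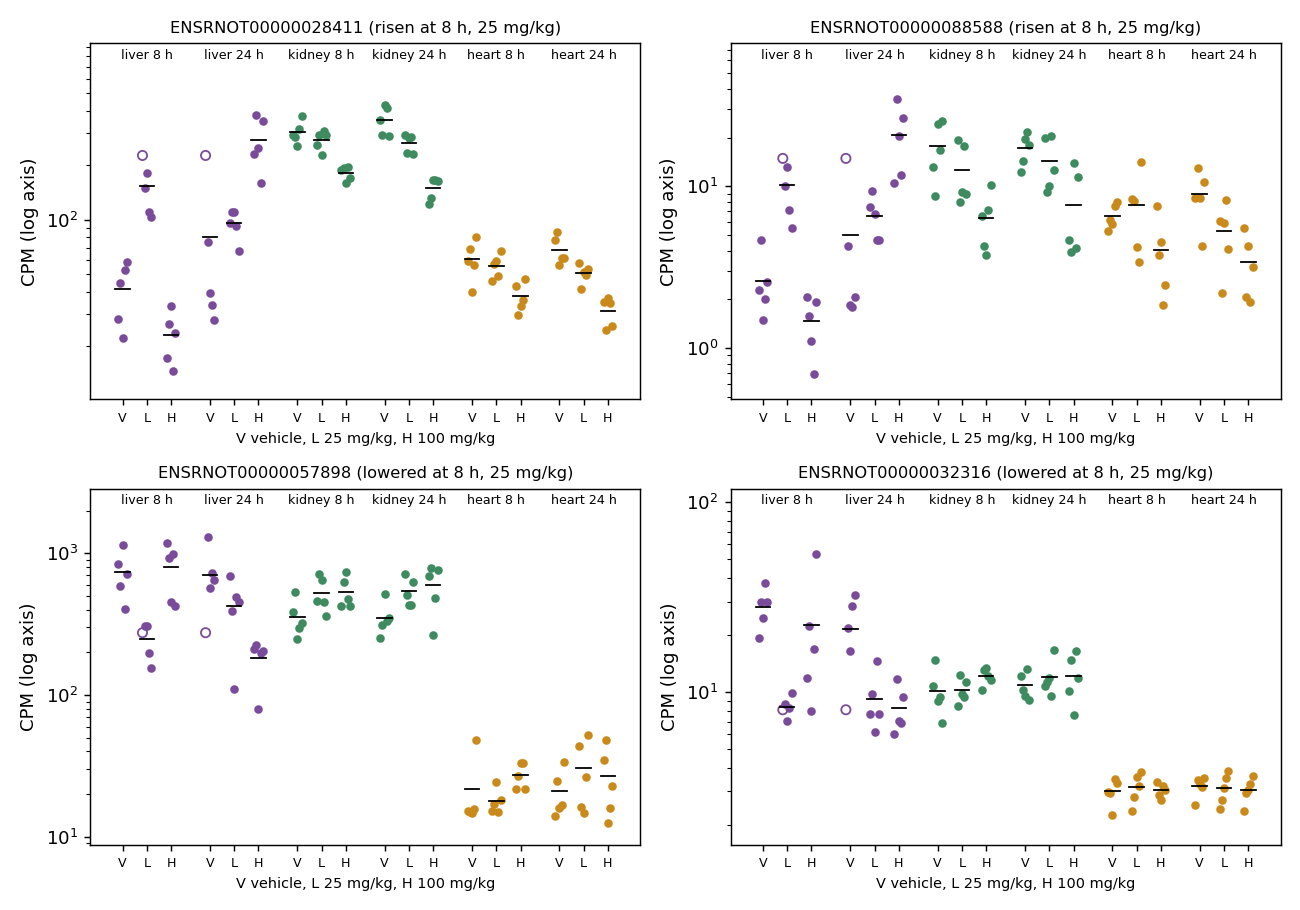
CPM (log axis) of the 4 leading transcripts in every library of the 18 groups, with 1 point per library and a bar at the group mean, MS-1 and MS-9 included. V, L, and H are vehicle, 25 mg/kg, and 100 mg/kg, and open points are MS-9 (liver 8 h) and MS-1 (liver 24 h). For both risen transcripts the low-dose livers at 8 h and the high-dose livers at 24 h stand above vehicle once MS-1 is left out, and the kidney and heart means after 100 mg/kg lie below vehicle.

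ENSRNOT00000057898, a short transcript of 389 bases, had the largest gap among the lowered members that met the naming rule, which required the low-dose libraries other than MS-9 to lie below every vehicle library. At 8 h, vehicle livers held 836, 594, 1150, 405, and 711 CPM. Low-dose livers held 276 (MS-9), 309, 309, 199, and 154 CPM, and high-dose livers held 1192, 933, 453, 994, and 423 CPM. Every low-dose liver was below every vehicle and high-dose liver, and the latter groups overlapped. At 24 h, vehicle livers other than MS-1 (276 CPM) held 1304, 567, 725, and 654 CPM. Low-dose livers held 689, 391, 110, 494, and 450 CPM, and high-dose livers held 210, 226, 79.8, 198, and 203 CPM. The high-dose livers were below all 5 vehicle libraries and overlapped the low dose in 1 library. Against vehicle, the high dose gave −2.65 (SE 0.427, edgeR adjusted p = 0.00104), and −2.99 without MS-1 (SE 0.323, edgeR adjusted p = 4.96e-05). Against the low dose it gave −1.51 (SE 0.414, edgeR adjusted p = 0.0186), which did not pass 0.01.

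ENSRNOT00000032316, of 625 bases, held 19.3, 29.9, 24.5, 37.4, and 30.0 CPM in vehicle livers at 8 h. Low-dose livers held 8.07 (MS-9), 8.70, 7.06, 8.29, and 9.85 CPM, and high-dose livers held 11.9, 22.2, 8.00, 16.8, and 53.7 CPM. The low-dose livers were tightly grouped below vehicle, while the high-dose livers spread across both. At 24 h, vehicle livers other than MS-1 (8.07 CPM) held 21.8, 16.4, 28.4, and 32.5 CPM. Low-dose livers held 7.72, 9.79, 6.19, 14.6, and 7.69 CPM, and high-dose livers held 6.05, 11.7, 7.0, 6.89, and 9.45 CPM. Both doses lay below the 4 vehicle libraries and overlapped each other. Without MS-1, the low dose gave −1.97 (SE 0.279, edgeR adjusted p = 0.000808) and the high dose −2.48 (SE 0.227, edgeR adjusted p = 2.13e-05). With MS-1, the low dose gave −1.71 (SE 0.395, edgeR adjusted p = 0.0235) and the high dose −2.14 (SE 0.374, edgeR adjusted p = 0.00159). The doses differed by −0.47 (SE 0.229, edgeR adjusted p = 0.141).

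Neither lowered transcript passed the thresholds in kidney or heart. In kidney at 24 h after the high dose, ENSRNOT00000057898 gave 0.66 (SE 0.278, edgeR adjusted p = 0.148) and ENSRNOT00000032316 gave 0.06 (SE 0.220, edgeR adjusted p = 0.894). The high-dose effect at 24 h, without MS-1, differed between liver and kidney by −3.60 for the former (SE 0.457, edgeR adjusted p = 1.97e-05) and by −2.49 for the latter (SE 0.334, edgeR adjusted p = 3.31e-05). Between liver and heart it differed by −3.41 (SE 0.531, edgeR adjusted p = 5.6e-05) and by −2.49 (SE 0.272, edgeR adjusted p = 1.34e-06), respectively.

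In kidney at 8 h the medians lay close to vehicle, while single members spread to both sides. The median L was −0.01 after both doses for the 30 risen members, and −0.01 after the low dose and 0.09 after the high dose for the 73 lowered members. After the high dose, 12 lowered members had an L of at least 0.8 and 4 of at most −0.8, where 415 and 622 of 17120 transcripts with a vehicle mean of at least 1 CPM in kidney did. Not all members met that minimum, so the counts are not compared. After the low dose, edgeR called 1 of 71 members tested, a lowered member that was lower (0.0425% of all transcripts tested in that direction). After the high dose, 2 of 51 lowered members were higher (1.09%) and 2 were lower (0.409%). The high dose gave a lower level than the low dose for 1 of 24 risen members (0.113%).

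In kidney at 24 h the median L was 0.28 after the low dose and 0.21 after the high dose for risen members, and 0.06 and 0.01 for lowered members. After the low dose, 1 of 23 risen members was higher (0.0377% of all transcripts tested), with a log2 fold change of 1.44 (SE 0.145, edgeR adjusted p = 0.00355). The high dose gave a higher level than the low dose for 1 of 51 lowered members (0.276%). After the high dose, 3 of 23 risen members were higher (2.15% of all transcripts tested) and 2 were lower (2.04%), and of 49 lowered members 5 were higher and 6 were lower. The lowered members that were higher in kidney included the most abundant of them, with a log2 fold change of 1.92 (SE 0.359, edgeR adjusted p = 0.00483). That transcript had ranged from 1669 to 16860 CPM in vehicle livers and from 2067 to 20461 CPM in high-dose livers at 8 h, so that its low-dose range of 2216 to 7244 CPM lay inside both. In heart the median L stayed between −0.05 and 0.05 for either direction, dose, and time, and 1 of 63 members tested was called at 24 h after the high dose, ENSRNOT00000028411 (0.245% of all transcripts tested were lower).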

How the data were processed

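The members and lists were chosen with earlier results of these data known. Per the labels and the study's methods, the authors quantified poly-A RNA-seq reads with kallisto 0.42.2 (Rnor_6.0) and deposited, per target, an estimated count (not normalized) and a TPM (length-scaled). kallisto divides reads shared by similar transcripts, so single-transcript levels are uncertain where isoforms or gene copies overlap. Rows on genomic intervals were left out, and CPM was computed on the remaining total.

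Estimated counts were rounded and compared in R 4.3.3 with edgeR 4.0.16 (default low-count filter, TMM, quasi-likelihood test, Benjamini-Hochberg over all transcripts tested), 5 libraries against 5. Calls needed an adjusted p at or under 0.01 and a change of at least 0.6 in natural-log units. Organ differences were interaction terms, without the fold limit, and with the kidney and heart tests at 24 h were added after the data were seen. DESeq2 1.42.0, limma 3.58.1 on log2(TPM + 1), and other settings were alternatives. The scripts were tested on simulated data. Figures used matplotlib 3.10.9.

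The named transcripts were the 2 risen and 2 lowered members with the largest gap that were also members without MS-9, averaged at least 2 CPM in the low-dose (risen) or vehicle (lowered) group, and had every low-dose library but MS-9 on 1 side of all vehicle libraries. Each library is a separate sample in the labels. Depth sets the counting precision, and no intervals were computed.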

Additional observations from a re-analysis of the deposited data

Results flagged for a closer look

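Single libraries far from the others of their group were searched for in 18 sets of liver values at 24 h (the member medians and the 4 named transcripts), where about 1 in 20 such sets is marked by chance. Liver at 8 h and MS-1, whose data chose the members, were left out of the search. Of the 2 found, ENSRNOT00000088588 was at 4.27 CPM in MS-4 of the vehicle group, against 1.80 to 2.08 CPM in the other 3, and ENSRNOT00000057898 was at 79.8 CPM in MS-24 of the high-dose group, against 198 to 226 CPM in the other 4.

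The high-dose effect at 24 h (log2, without MS-1) differed between organs in all 8 tests made. The 4 transcripts were chosen by their liver values at 8 h, which can favour a larger effect in liver. The kidney and heart tests also used the same liver libraries, so the 8 tests are not independent. The liver effect less the kidney effect was 3.19 for ENSRNOT00000028411, 3.53 for ENSRNOT00000088588, −3.60 for ENSRNOT00000057898, and −2.49 for ENSRNOT00000032316. The liver effect less the heart effect was 2.82, 3.51, −3.41, and −2.49 in the same order.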

How the results depend on the processing

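No paired analysis was made. Each rat received 1 dose and was killed at 1 time, and the labels carry library numbers without a replicate number shared between groups or organs. The library numbers were not used to match organs to rats. Leaving out each library gave 88 to 126 members by the rule, lowest without MS-16. A pseudocount of 0.1 gave 300 members, the most allowed (69 shared with the reported set), TPM gave 275 (64 shared), and group medians gave 133 (57 shared). Without MS-9 there were 123, of which 85 were shared, 82.5% of the reported set and 69.1% of the 123. The counts below against vehicle are members called in their low-dose direction at 8 h. Between the doses, at either time and in kidney, they are members called as the rule orders them. That is, risen members were lower and lowered members higher at the high dose. In liver at 8 h they were 33 for low dose against vehicle (limma 19, leaving out a library 22 to 30), 3 for high dose against vehicle (DESeq2 7, leaving out a library 3 to 6), and 8 for high against low dose (DESeq2 21, limma 3, leaving out a library 3 to 8). In liver at 24 h they were 3 for low dose against vehicle (DESeq2 13, limma 6, leaving out a library 2 to 15, the latter without MS-1). They were 14 for high dose against vehicle (DESeq2 25, members chosen without MS-9 23, leaving out a library 10 to 29, the latter without MS-1) and 4 for high against low dose (DESeq2 8, limma 7, leaving out a library 3 to 6). Between the doses at 24 h, 5 members were called against the order of the rule. Alternatives added after the data were seen gave, for low dose against vehicle, 7 with all 15 libraries in 1 fit and 16 without MS-1 and with members chosen without MS-9, and for high dose against vehicle 35 in the latter. In kidney at 8 h they were 1 for low dose against vehicle (DESeq2 5, limma 4, leaving out a library 0 to 2), 2 for high dose against vehicle (leaving out a library 2 to 3), and 1 for high against low dose (DESeq2 3, no fold limit 2, leaving out a library 1 in each case). The cause was not tested. Of 65 settings that left out no library other than MS-9 or MS-1, 46 stayed within 1.5 times the reported count.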
